A study of Danaus plexippus with 36 samples.

Results

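A set of 50 genes of the monarch butterfly (Danaus plexippus) had leg levels that differed at least 3-fold between females and males, in the same direction, in each of 2 batches. Of these, 46 were higher in females and 4 were higher in males, out of 15130 genes counted. Levels are given as counts-per-million values (CPM), the count of a gene scaled to the sum of its library. The leg CPM of each sex was averaged within each batch and 0.1 was added. A gene was taken when one sex was at 1 or more and at least 3 times the other in both batches, and it was dropped when its mean over all leg libraries was 4 or more times its mean in both other tissues. The members were therefore chosen by the leg values of these same animals, and their leg sex ratios are given as a description with no test. The rule did not use the sex differences in the antennae and the proboscis of the same animals, or the difference between antennae and proboscis. It did use antennal and proboscis means in the drop step and leg levels by batch, which bears on the tissue levels and batch differences given here.

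The animals were adult monarchs taken in the wild, 6 females and 6 males, each identified by a number, with 3 of each sex in each batch. Batch followed the numbering of the libraries, earlier against later numbers. Whether it marks a difference in animals, library preparation or sequencing is not known from the library titles. Every female was gravid, and hence the effects of sex and of reproductive state cannot be told apart. Ages, the legs taken and whether several legs entered a library are not given in the labels. Antennae, legs and proboscis came from the same animal, and messenger RNA was sequenced from 35 libraries, 6 in each group of sex and tissue except male antennae, with 5.

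In butterflies the legs carry taste hairs, and a female ready to lay drums on a leaf with the forelegs and tastes it before she places an egg. Antennae mainly serve smell, and the proboscis tastes and takes up nectar. A gene that differs between the sexes in such an appendage may belong to its sense organs, to its cuticle, muscle or fat tissue, or to the blood cells inside it. The members carry identifiers of a gene set that the deposited counts do not pair with names, and 0 of the 50 identifiers occurred in the gene table used here (assembly MEX_DaPlex). No function, sequence or location is therefore given for any member, and marker genes of tissues or cell types could not be checked. Few members are named for the same reason, by a rule stated with the processing.

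Leg libraries held 11739458 to 15189390 counts in batch 1 and 35632691 to 116578024 in batch 2. Antennal libraries held 621625 to 24739593 counts and proboscis libraries 1915361 to 53662054. A library without a count of a gene allows up to 3 counts, which was 0.0257 to 0.256 CPM in legs, 0.0559 to 1.57 CPM in proboscis and 0.121 to 4.83 CPM in antennae, for counting error only. Absence of a member from an antennal library therefore says less than absence from a leg library. These are bulk libraries, in which fewer cells of a type and less RNA per cell cannot be told apart. The p-values of fits within 1 tissue measure the spread between animals. Fits that compare antennae with proboscis took libraries of the same animal as independent, except where the animal is said to be a block.

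The 50 members were a small part of the genes that reached the limits in 1 batch. In batch 1, 505 genes were female-higher and 60 male-higher, and in batch 2 there were 203 and 114. Both batches shared 50 female-higher and 4 male-higher genes, before 4 female-higher genes were dropped as leg-restricted. Another 8 genes met the limits in both batches in opposite directions, 7 of them female-higher in batch 1 and male-higher in batch 2. The 505 genes picked in batch 1 as female-higher were higher in females in batch 2 in 60.2% of cases, with a median log2 female/male ratio there of 0.22. Over the 9502 genes with one sex at 1 or more in each batch, 58.3% were higher in females in batch 2, with a median of 0.09. The 203 female-higher genes of batch 2 were higher in females in batch 1 in 73.9% of cases, against 82.4% of those 9502 genes. Male-higher genes kept their direction in 71.7% (the 60 of batch 1) and 35.1% (the 114 of batch 2). The picked genes had to reach 1 only in the batch of the pick, so these sets are unlike. Most genes picked from 1 batch of 3 animals per sex thus did not reach the limits in the other batch, and the members are those that did.

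The scale of the CPM itself favoured females in batch 1. The median log2 female/male ratio of those 9502 leg genes was 0.46 in batch 1 and 0.09 in batch 2, and 82.4% of them were higher in females in batch 1. With TMM scaling, which uses a trimmed mean of log ratios to set the bulk of genes level, the medians were 0.03 and -0.01. Relative to that bulk, 39 of the 46 female-higher members were still at least 3-fold apart in batch 1 and 45 in batch 2. Each of the 46 stayed above 1 and each of the 4 male-higher members below 1 in both batches with this scaling. The median female/male ratio of the 46 genes was 6.52 in batch 1 and 4.20 in batch 2 by CPM, and 4.98 and 4.07 with TMM.

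**Figure D1:**
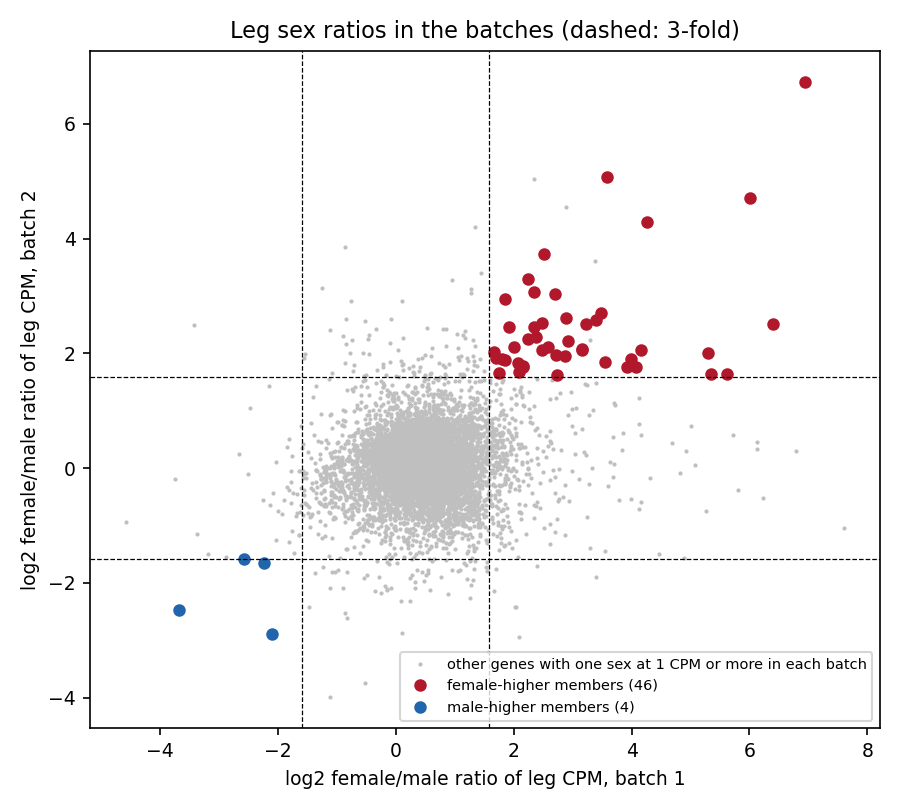
Each point is a gene, placed by its log2 female/male ratio of mean leg CPM (0.1 added) in batch 1 (x axis) and batch 2 (y axis), with dashed lines at 3-fold. The cloud of other genes is centred to the right of 0 on the x axis (median 0.46 in batch 1), the 46 female-higher members lie in the upper right and the 4 male-higher members in the lower left.

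Near the limit, the female-higher members with the lowest smaller batch ratio were at 3.07 and 3.11, and the genes just outside were at 2.93 and 2.90. Of the male-higher members, the lowest were at 3.01 and 3.16, and the nearest genes outside were at 2.91 and 2.82. The members just inside the limit and the genes just outside it differed little in their ratios.

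Most female-higher members were scarce transcripts. Their mean in female legs ran from 1.23 to 559 CPM with a median of 7.84 CPM, and 28 of the 46 were under 10 CPM while 6 were at 100 CPM or more. In male legs the same genes ran from 0.0715 to 75.5 CPM with a median of 0.896 CPM. None was absent from male legs: each had a count in at least 1 male leg library, and 33 had a count in all 6. Some of these detections rested on 1 count, as in the legs of male 13 for DPOGS206988 and DPOGS202644, which shows presence only weakly. Apart from such cases, the difference in those 33 was one of level. Where a male leg library held no count of a member, a low level and absence cannot be told apart.

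The ratios ranged widely among the 46 genes, from 3.18 to 123 in batch 1 and from 3.07 to 107 in batch 2. Ratios of 10 or more were seen for 15 genes in batch 1, for 5 in batch 2 and for 4 in both. In 30 of the 46 genes the ratio was larger in batch 1, the batch whose CPM favoured females.

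For 7 of the 46 genes (15.2%) every female leg library lay above every male one, and over all 11804 genes tested the share was 0.212%. The rule used this contrast, so nothing is read from the difference. In the other 39 genes at least 1 male overlapped the females. None of the 4 male-higher members separated the sexes fully, against 0.0593% of all genes with every male above every female.

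DPOGS209204 had the largest smaller batch ratio of the members without overlap. Its level in female legs had a lowest value of 32.7, a median of 435 and a highest value of 1673 CPM. In male legs it was 0.575, 4.55 and 10.02 CPM in the same order. Even the lowest female, from batch 1, stood above the highest male, from batch 2. The female/male ratio was 123 in batch 1 and 107 in batch 2, and its leg level was higher in batch 2 than in batch 1 (log2 fold change 2.08 ± 0.60, SE, edgeR quasi-likelihood test with Benjamini-Hochberg adjustment over all genes tested, adjusted p = 0.01497; 1.68 without female 3, adjusted p = 0.0519). The next gene under the naming rule, DPOGS204385, was rare, at 0.988, 2.44 and 3.36 CPM in female legs and 0, 0.179 and 0.592 CPM in male legs. Here the groups came close, and the lowest female held 15 counts. Its ratios were 11.2 in batch 1 and 6.54 in batch 2.

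Over the 12 leg libraries, the member whose log2 level was most like that of DPOGS209204 was DPOGS212711, with a Pearson r of 0.953. The member most like DPOGS204385 was DPOGS202808, with an r of 0.900. Since all of these genes were chosen for higher female levels, a part of each r comes from the choice, and the values are a description.

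Single animals carried much of the leg difference. In 17 of the 46 genes 1 female held at least 50% of the summed CPM of the 6 female leg libraries. The share of all genes with such a female was not computed, and the choice of genes with high female averages bears on the count. Left out 1 at a time, the 12 animals each changed the list: 8 of the 46 genes met the rule in all 12 leave-outs, 14 were lost in 1 of them and 24 in 2 or more. Without female 25 the list kept 32 of the 46 genes, the fewest, and without male 15 it kept all 46. Female 25 was the highest female for 15 of the 46 genes, followed by females 27 and 3 with 8 each. Among male-higher members, 1 of 4 met the rule in all leave-outs.

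**Figure D2:**
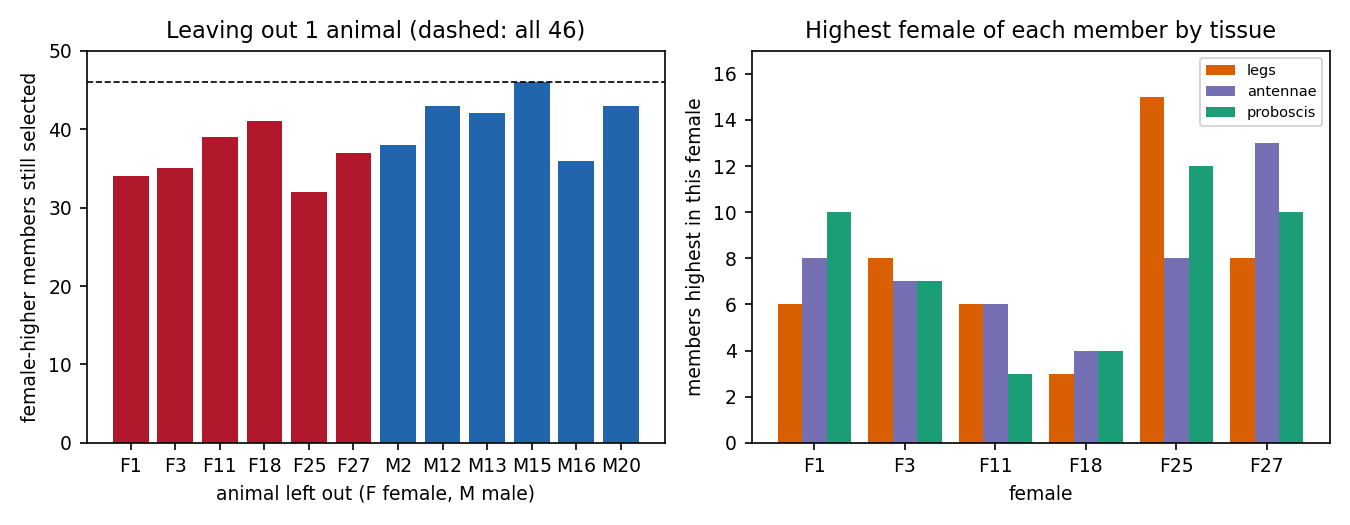
On the left, bars give the number of the 46 female-higher members that still met the rule when 1 animal was left out (red females, blue males), from 32 without female 25 to 46 without male 15. On the right, bars count the members whose highest female was the animal named on the x axis, in legs, antennae and proboscis; female 25 leads in legs with 15, and female 27 leads in antennae with 13.

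Several members were high in all tissues of 1 female. Of the 8 genes that peaked in the legs of female 27, 6 also peaked in her antennae, 6 in her proboscis and 5 in both. Over the 46 genes the highest female in legs was also the highest in antennae for 17 genes (37.0%; 19.9% of all 11804 genes) and in proboscis for 14 (30.4%; 28.9% of all genes). It was the highest in all 3 tissues for 11 genes (23.9%; 8.99% of all genes). The share in proboscis was near that of all genes, and the shares in antennae and in all 3 tissues were above it. These shares were not tested, and the choice of genes with high female averages bears on them. A highest value can also rest on few counts in a shallow library. In the antennae of female 11 it rested on 1 count for DPOGS206957 (1.61 CPM) and on 4 counts for DPOGS204385 (6.43 CPM).

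DPOGS210095, singled out after its values were seen, shows how far 1 animal could reach. Its level was 1327 CPM in the legs of female 27 and 0.430 to 95.3 CPM in the legs of the other 5 females. In her antennae it was 838 CPM, where the other females had 0.546 to 19.3 CPM. In her proboscis it was 628 CPM, where the others had 0.834 to 3.30 CPM. One butterfly thus carried a high level of this gene through all 3 appendages, and 92.5% of its summed female leg CPM. The male leg values were 0.225, 2.76 and 30.1 CPM (lowest, median and highest), which overlapped the other females. Its batch ratios were 48.9 and 3.13. In batch 2 the higher female mean rested on female 3, at 95.3 CPM, and the gene was lost without female 27, female 3, male 12 or male 16.

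DPOGS206952 followed a similar course at a lower level. Female 27 had 262 CPM in legs, 439 CPM in antennae and 227 CPM in proboscis. The other females had 6.67 to 28.1 CPM in legs, 7.28 to 17.7 CPM in antennae and 0.522 to 24.9 CPM in proboscis. By contrast with DPOGS210095, 3 of the other 5 females lay above every male in legs, where males had 1.06, 3.39 and 8.36 CPM (lowest, median and highest), and it met the rule without female 27. In antennae the males had 0, 1.42, 5.98, 8.69 and 11.4 CPM. The fitted log2 female/male value in antennae was 4.03 ± 0.96 (SE), the smallest p of the members there (edgeR quasi-likelihood test, unadjusted p = 0.00089, adjusted p = 1), and 2.07 without female 27.

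DPOGS213644 was high in some females and close to 0 in every male. In legs, females 25, 3 and 1 had 23.3, 20.6 and 13.7 CPM, and the other 3 females had 0.0674 to 0.329 CPM. Males had 0, 0.036 and 0.552 CPM (lowest, median and highest), so that the low females overlapped them. The same 3 females were the only ones with a count in antennae, at 72.8, 15.3 and 5.78 CPM. Male antennae held 1 count in all, against 1147 in females, a ratio of summed levels of 467 with an exact (Clopper-Pearson) 95% interval of 83.6 to 18447 for counting error only (edgeR quasi-likelihood test, unadjusted p = 0.00307, adjusted p = 1). Female 25 held 920 of the 1147 counts, and the mean of female antennae was 15.6 CPM with that library and 4.21 CPM without it. The fitted log2 value was 2.91 without female 25. In proboscis the order among females changed: female 25 reached 8498 CPM, female 27 had 87.7 CPM, and females 1 and 3 had 0.130 and 0.324 CPM. Female 11 held 10 counts in a library of 1915361 counts, so her level also lay above that of every male, and female 18 held 0 counts. Proboscis levels of males were at most 1.06 CPM. The female mean in proboscis was 1432 CPM with female 25 and 18.7 CPM without that library.

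**Figure D3:**
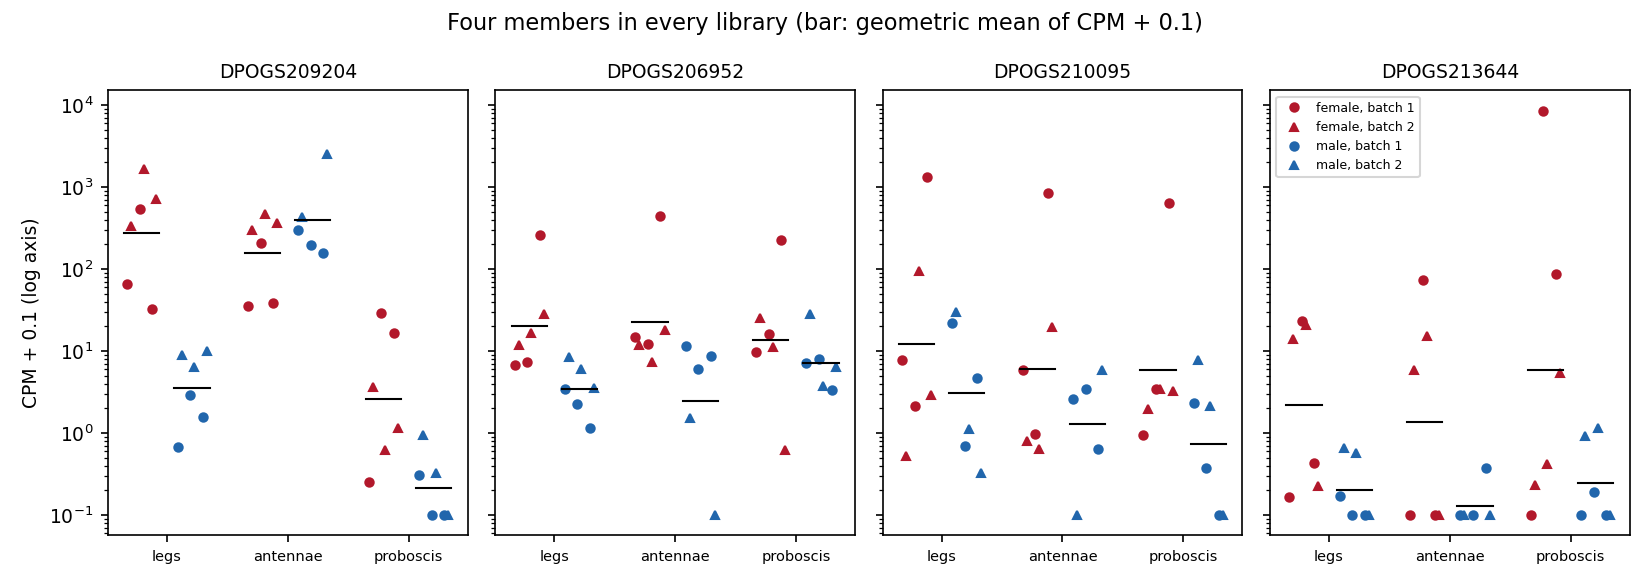
Levels of 4 female-higher members in every library, as CPM plus 0.1 on a log axis, by tissue and sex (red female, blue male; circles batch 1, triangles batch 2; bars are geometric means of CPM plus 0.1). DPOGS209204 separates the sexes in legs and not in antennae, where male 16 reached 2528 CPM; DPOGS206952 and DPOGS210095 have 1 high female in each tissue, female 27; DPOGS213644 peaks at 8498 CPM in the proboscis of female 25.

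Outside the legs the direction was mostly shared. In antennae the fitted sex difference of the 46 female-higher members was above 0 for 40 (87.0%), against 53.4% of all 11804 genes, and its median was 1.51 on the log2 scale against 0.05 for all genes. With the 6 genes that had 0 to 3 counts in male antennae set to their summed ratio or bound, the median was 1.39. In proboscis it was above 0 for 41 of 46 (89.1%), against 45.9% of all genes, with a median of 1.18 against -0.03. None of the 46 genes passed the adjusted threshold in either tissue, where 0% of all genes were called (edgeR quasi-likelihood test in both). At an unadjusted p below 0.05, 8 of 46 were female-higher in antennae (17.4%; 2.14% of all genes) and 7 of 46 in proboscis (15.2%; 0.661% of all genes). At the same limit 1 of 46 was male-higher in antennae (0.957% of all genes) and 0 of 46 in proboscis, with 2 of the 4 male-higher members (0.441% of all genes). DESeq2 also called none of the 46 genes in either tissue.

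Leaving out each animal in turn gave 37 to 43 of 46 genes above 0 in antennae and 37 to 43 in proboscis. Without female 27 there were 38 and 39, with medians of 1.19 and 0.88, while the antennal genes above 0 at an unadjusted p below 0.05 numbered 3 in place of 8 (1.5% of all genes in that fit). Since each animal gave all of its tissues, an animal with a high level throughout its body counts in each of them. Members are also not independent of each other, and the counts carry no test.

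Split by batch, 30 of the 46 genes had a higher female mean in both batches in antennae (65.2%; 28.7% of all genes) and 29 in proboscis (63.0%; 16.6% of all genes). The full 3-fold rule, applied to the other tissues without the leg-restricted step, was met in antennae by 7 of the 46 (15.2%; 1.21% of all 15130 genes) and in proboscis by 1 (2.17%; 0.0595% of all genes). These all-gene shares include 516 genes without a count in any library, while every member passed the filter on low counts, so the sets are unlike. In batch 2 the male antennal mean rested on males 12 and 16 only. Full separation of the sexes was seen for 1 member in antennae, DPOGS212711, where 0.136% of all genes separated, and for 1 in proboscis, DPOGS206919, where 0.0424% did; both are named after their values were seen. DPOGS212711 had 34.2 to 59.9 CPM in female antennae and 16.2, 19.8, 20.2, 23.2 and 28.8 CPM in male ones. The antennal gap was modest, with a fitted log2 value of 0.97 ± 0.33 (SE, edgeR quasi-likelihood test, unadjusted p = 0.0104, adjusted p = 1). DPOGS206919 had 4.10 to 14.6 CPM in the proboscis of females and 0.26 to 3.77 CPM in that of males, with a fitted log2 value of 2.15 ± 0.73 (SE, edgeR, unadjusted p = 0.0109, adjusted p = 1).

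**Figure D4:**
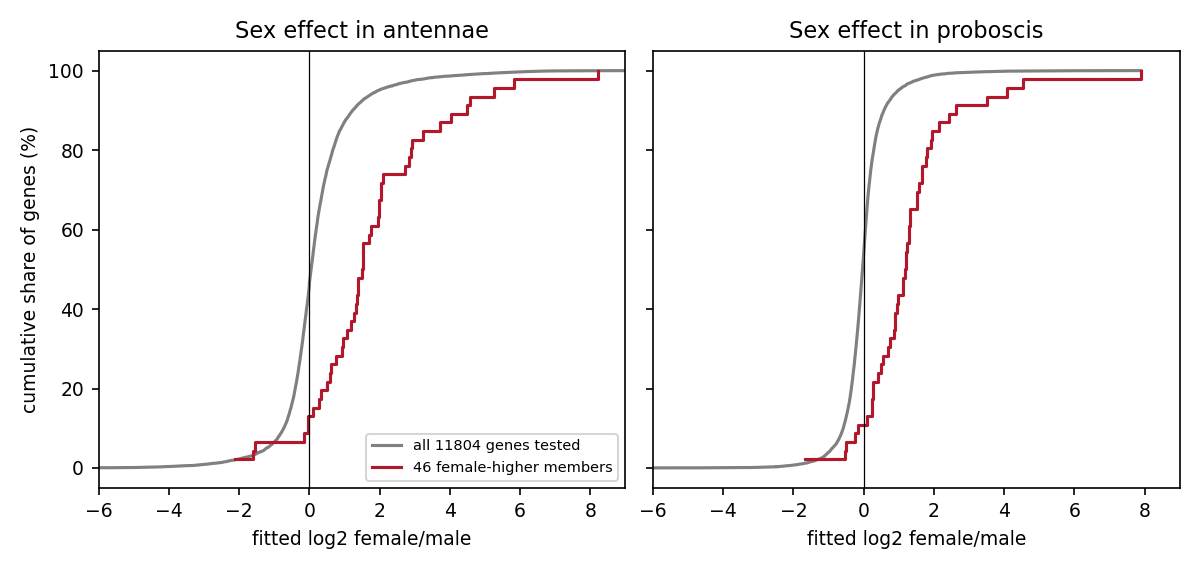
Cumulative share of genes (y axis, percent) by fitted log2 female/male value (x axis) in antennae and in proboscis, for all 11804 genes tested (grey) and the 46 female-higher members (red); genes beyond the axis limits are not drawn. Above 0 the red curves lie to the right of the grey ones, with medians of 1.51 and 1.18 against 0.05 and -0.03.

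The lowest p for a female-higher difference in proboscis belonged to DPOGS209194. Females had 5.46, 14.04 and 46.5 CPM there (lowest, median and highest) and males 1.24, 5.22 and 7.32 CPM. Of the 6 females, 4 lay above every male and 2 overlapped them, and the fitted log2 value was 1.93 ± 0.59 (SE, edgeR quasi-likelihood test, unadjusted p = 0.00569, adjusted p = 1). In antennae the gene ranged from 14.7 to 159 CPM in females and was 0, 10.2, 23.6, 55.8 and 87.3 CPM in males, with overlap.

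Of the 46 female-higher members 40 had a fitted antennal value above 0. DPOGS204385 did not, at -2.13 ± 1.56 (SE, edgeR quasi-likelihood test, unadjusted p = 0.193), nor did DPOGS209204. In legs and proboscis DPOGS209204 was higher in females. In antennae females had 35.2, 255 and 465 CPM of it (lowest, median and highest) and males had 156, 197, 295, 426 and 2528 CPM. Every male antennal library thus lay above every male leg library, and the sexes overlapped in antennae. In proboscis females had 0.152, 2.30 and 28.7 CPM and males 0, 0.106 and 0.837 CPM, with overlap. The fitted log2 female/male value was -1.54 ± 0.51 in antennae (SE, edgeR, unadjusted p = 0.009, adjusted p = 1) and 4.55 ± 1.48 in proboscis (SE, edgeR, unadjusted p = 0.00857, adjusted p = 1). Male 16 held the highest antennal value, and the mean of male antennae was 268 CPM without that library. The sex differences in antennae and proboscis differed by -7.75 ± 1.47 on the log2 scale (SE, edgeR interaction test over all genes, unadjusted p = 8.61e-06, adjusted p = 0.102). That difference missed the threshold, passed it without female 3 (edgeR, adjusted p = 0.043; 0.043 to 0.355 over the animals left out) and was called by DESeq2 (adjusted p = 3.98e-06). With the animal as a block it was -6.61 (edgeR, adjusted p = 1). No other member was called in the interaction test, where 0% of all genes were called by edgeR and 403 genes had an unadjusted p below 0.05.

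The members did not belong to 1 appendage. By mean CPM, 24 of the 46 female-higher genes were highest in antennae, 11 in legs and 11 in proboscis, within a set from which genes restricted to legs had been dropped. The matching shares of all genes were not computed, and such a mean can rest on 1 library. Between antennae and proboscis, a contrast the rule did not use, 19 of the 50 members differed (38.0%; 26.1% of all genes), 9 higher in antennae (18.0% of members and 11.4% of all genes) and 10 higher in proboscis (20.0% and 14.7%; edgeR quasi-likelihood test). Fitted with the animal as a block, 16 of 50 differed (24.6% of all genes in that fit).

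DPOGS209204 and DPOGS202387 led the genes that were higher in antennae. DPOGS209204 differed by 7.24 ± 0.83 on the log2 scale (SE, edgeR, adjusted p = 1.94e-08). DPOGS202387 had 49.9, 387 and 757 CPM in female antennae (lowest, median and highest) and 0, 35.9, 91.4, 198 and 237 CPM in male ones, against at most 7.08 CPM in any proboscis library. Apart from male 20, whose antennae had no count of it, every antennal library lay above every proboscis library. The log2 difference was 5.96 ± 0.69 (SE, edgeR, adjusted p = 2.89e-08). In legs it was again low, at 0.922, 8.71 and 18.6 CPM in females and 0.565, 1.45 and 2.46 CPM in males.

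DPOGS206957 and DPOGS206988 showed the opposite layout. DPOGS206957 was abundant in legs, at 119, 205 and 548 CPM in females and 27.4, 83.2 and 124 CPM in males (lowest, median and highest). In proboscis it had 20.8 to 142 CPM in females and 2.95 to 40.9 CPM in males. Antennae held at most 1.61 CPM in any library, below every proboscis library (log2 difference from proboscis -7.24 ± 0.58, SE, edgeR, adjusted p = 8.69e-12). DPOGS206988 had 4.98 to 12.2 CPM in the legs of females and 0.0719 to 3.74 CPM in those of males, without overlap. In antennae it had 6 counts in all, each in the library of female 25, and its log2 difference from proboscis was -8.69 ± 1.03 (SE, edgeR, adjusted p = 1.10e-07).

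Of the 50 members 7 differed between batches in legs (14%), 4 higher and 3 lower in batch 2, against 41.3% of all genes, 20.4% higher and 20.9% lower (edgeR quasi-likelihood test); the rule used leg levels in each batch, so nothing is read from the lower share. Without male 2, and likewise without female 11, 4 of the 50 differed, where 33.2% and 32.8% of all genes did. DPOGS200298 was higher in batch 2, with female legs at 0.674, 1.34 and 4.61 CPM in batch 1 and 3.05, 17.8 and 27.8 CPM in batch 2 (log2 fold change 2.33 ± 0.73, SE, edgeR, adjusted p = 0.0222). DPOGS211947 was lower, with female legs at 13.1, 74.6 and 102 CPM in batch 1 and 1.34, 1.96 and 7.81 CPM in batch 2 (log2 fold change -3.83 ± 0.68, SE, edgeR, adjusted p = 0.00103). Its males moved the same way, from 4.17, 4.23 and 12.7 CPM to 0.158, 0.926 and 1.31 CPM. DPOGS202746 was also lower in batch 2 (log2 fold change -2.60 ± 0.53, SE, edgeR, adjusted p = 0.00257). The call of DPOGS200298 was lost without male 2, female 11 or female 25 (adjusted p = 0.0532, 0.0594 and 0.0543).

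**Figure D5:**
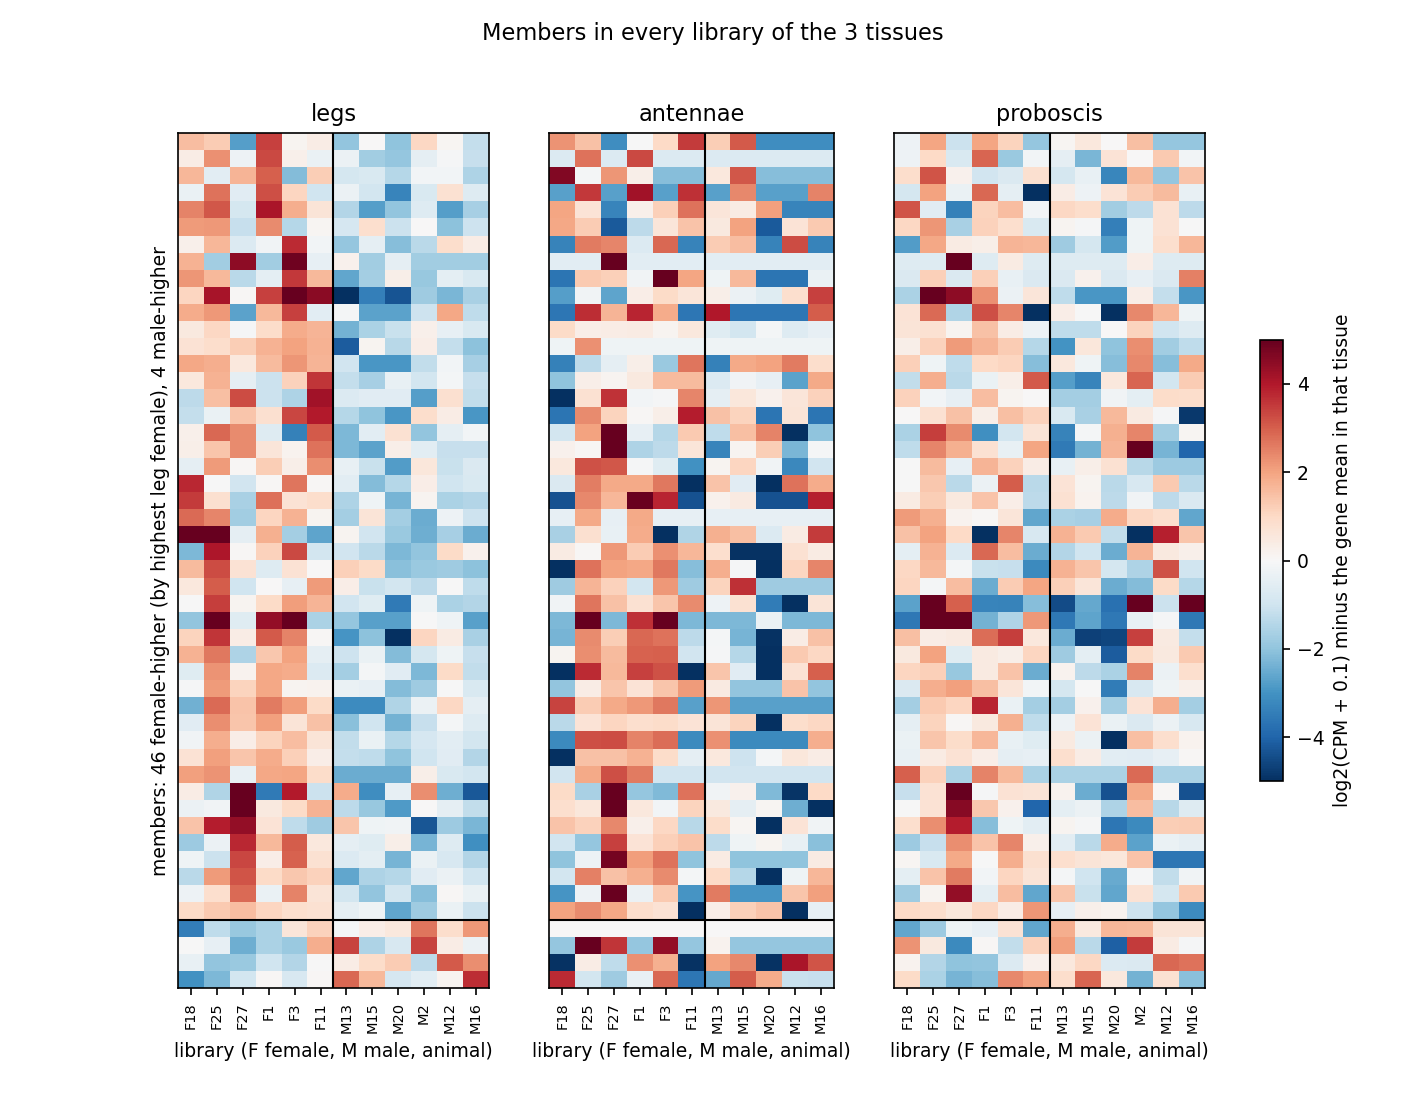
Log2(CPM + 0.1) of each member (rows) in every library (columns, F female and M male with the animal number), minus the mean of the gene in that tissue, with colours held at -5 and 5. Rows above the horizontal line are the 46 female-higher members, ordered by the female with the highest leg level, and rows below it the 4 male-higher members; the vertical lines part females from males. Female 27 is the highest in legs for 8 of the rows, and 5 of these are also highest in that female in both other tissues.

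The 4 male-higher members, all named although the leg rule for names gave none, were scarce. DPOGS212727 was the one that met the rule in every leave-out. It had 0.423, 0.788 and 1.92 CPM in female legs (lowest, median and highest) and 0.729, 4.31 and 16.99 CPM in male legs, where male 2 overlapped the females. Its female/male ratio was 0.233 in batch 1 and 0.135 in batch 2. The same direction appeared outside legs. In antennae males had 0, 12.4, 16.0, 27.2 and 52.5 CPM and females 0, 2.53 and 15.0 CPM (log2 female/male -2.35 ± 1.06, SE, edgeR, unadjusted p = 0.045, adjusted p = 1). In proboscis males had 1.58, 4.76 and 20.1 CPM and females 0.581, 1.27 and 3.13 CPM (log2 female/male -2.05 ± 0.79, SE, edgeR, unadjusted p = 0.0216, adjusted p = 1). The sexes overlapped in each of the 3 tissues.

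DPOGS201398 was without a count in all 11 antennal libraries and was at least 22.7-fold lower there than in proboscis, against a floor of 3 counts over the antennal group (edgeR, adjusted p = 4.86e-05). In legs males had 0.935, 1.70 and 6.98 CPM and females 0, 0.309 and 2.32 CPM, with overlap. In proboscis males had 0.736, 1.29 and 2.01 CPM and females 0, 0.212 and 0.891 CPM, also with overlap (log2 female/male -2.13 ± 0.96, SE, edgeR, unadjusted p = 0.0439, adjusted p = 1). DPOGS206216 was uneven: males 13 and 2 had 13.2 and 13.0 CPM in legs and the other 4 males 0.341 to 1.53 CPM, and females had 0.132 to 4.36 CPM. In antennae it ran the other way, with 279 counts in females and 3 in males, a ratio of summed levels of 37.8 (exact 95% interval 12.8 to 185, counting error only; edgeR, unadjusted p = 0.0179, adjusted p = 1). Of the 279 counts, 201 came from female 25. DPOGS215942 had 0 to 0.755 CPM in female legs and 0.353 to 10.5 CPM in male legs, and it did not meet the rule without male 16. Its antennal and proboscis levels overlapped widely between the sexes, at 0 to 16.1 and 0.249 to 9.24 CPM in females and 0.109 to 10.03 and 0.239 to 13.3 CPM in males.

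One pair of members had consecutive identifiers, DPOGS213744 and DPOGS213745. Both were scarce in female legs, with means of 2.02 and 2.42 CPM, and their batch ratios were 3.60 and 3.70 for the former and 3.27 and 3.79 for the latter. They were lost in 5 and 6 of the 12 leave-outs, and read sharing between them was not tested. Of the other members, 1 was lost in as many as 6.

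As a group, the 46 female-higher members filled the leg libraries unevenly. Their median level in a library was 2.17, 4.10 and 6.51 CPM in female legs (lowest, median and highest library) and 0.388, 0.713 and 1.27 CPM in male legs. The leg libraries of the sexes did not overlap, which the choice of members favours, so nothing is read from it. In proboscis this median was 2.09, 3.11 and 7.71 CPM in females and 1.33, 1.86 and 2.50 CPM in males, and in antennae 3.64, 6.56 and 11.8 CPM in females and 0, 1.42, 3.69, 3.79 and 4.46 CPM in males. Of the 46 genes 18 had a count in the antennae of male 20, the fewest of any library, and 24 in those of female 18, while at least 38 had a count in each leg library. Without male 20, 39 of the 46 genes had a fitted antennal value above 0, with a median of 1.23.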

How the data were processed

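Per the submitters' processing notes, reads were checked with FastQC 0.11.5, aligned with HISAT2 2.0.5 and counted with featureCounts 1.5.2, and limma is named. For the counting, no genome build, annotation or strand setting is named; these were not given in the sources used here. The libraries were strand-specific messenger RNA libraries from 100 ng of RNA, per the labels. The deposited values are raw counts per gene, not normalized, in 1 column per library. The labels list 36 samples; 35 entered the analysis, and the antennae of male 2 were not analysed here. Reads of near-identical or overlapping genes may be split between them, so such members are uncertain.

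Members were chosen by the rule given in the results. The members, the lists and the tests were chosen with earlier results of these data known. Tests used edgeR 4.0.16 in R 4.3.3 (quasi-likelihood, TMM, genes kept by filterByExpr with the 6 sex and tissue groups, 11804 in all, all 50 members among them), with Benjamini-Hochberg adjustment over all genes tested and a threshold of 0.05. Sex and batch were fitted within each tissue; the leg sex fit ran over all genes, and its calls on members are not reported, since the rule used that contrast. The antennae against proboscis contrast and its interaction with sex came from a fit of all 35 libraries with batch. The code was tested on simulated data. Up to 2 identifiers per direction and comparison are named: in legs, the members without overlap of the sexes with the largest smaller batch ratio, and elsewhere those with the smallest p whose higher group averaged 1 CPM or more. The 4 male-higher members and the genes said to be singled out were named after their values were seen.

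Antennae and proboscis came from the same animals, which pairs them: over 11 pairs the deviations from the group means had a median correlation of 0.189, and 9 pairs were over 0.1. Alternatives were DESeq2 1.42.0, limma 3.58.1 (voom), other scalings, no filter on low counts, other limits of the rule, an animal block and each animal left out. Figures were drawn with matplotlib 3.10.9. No list of tissue or cell type markers could be scored, because the identifiers had no names.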

Additional observations from a re-analysis of the deposited data

Results flagged for a closer look

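In 11 of 93 groups of the named genes, 1 library stood apart from the others of its sex and tissue. The gap in log2(CPM + 0.1) was held against Dixon's 95% critical value, which chance passes in about 1 in 20 groups. That rate does not apply where only 1 library held a count, since such a group always passes. This was so for DPOGS206216 and DPOGS213644 in male antennae and DPOGS206988 in female antennae. Nor does the rate apply to DPOGS210095, which was singled out after its values were seen. Male 20 accounted for 6 of the 11 groups. In his antennae DPOGS202387, DPOGS202746, DPOGS211947 and DPOGS212727 were at 0 CPM, where the next males had 35.9, 7.04, 7.57 and 12.4 CPM. DPOGS213644 was at 0.271 CPM in the same library and at 0 in the other male antennae, and DPOGS206957 was at 2.95 CPM in the proboscis of male 20, where the next male had 18.7 CPM. That antennal library held 3684200 counts, and 18 of the 46 female-higher members had a count in it. The antennae of males 12 and 16 held fewer counts in all, 2116085 and 2244393, yet 25 and 31 of these members had a count there.

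Female 27 stood apart in 3 groups. DPOGS206952 was at 439 CPM in her antennae, where the next female had 17.7 CPM, and DPOGS210095 at 628 CPM in her proboscis, where the next had 3.30 CPM. In her legs DPOGS204385 was low, at 0.988 CPM against 2.16 CPM in the next female. DPOGS206988 was at 0.475 CPM in the antennae of female 25 and at 0 in the other female antennae. DPOGS206216 was at 0.326 CPM in the antennae of male 13 and at 0 in the other male antennae. The cause of these values was not tested.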

How the results depend on the processing

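With TMM-scaled levels the rule gave 37 female-higher genes (36 of them members) and 10 male-higher genes. With the median over animals in place of the mean, it gave 35 female-higher genes, of which only 19 were members. That setting gave 3 male-higher genes, 1 of them a member. A constant of 1 CPM gave 17 and 1, a ratio of 2 gave 158 and 24, and a ratio of 4 gave 25 and 2. Leaving out 1 animal gave 35 to 59 female-higher and 3 to 13 male-higher genes. Asking for 1 CPM before adding 0.1, chosen after seeing the data, gave 45 and 4. For batch in legs the leave-outs called 4 to 8 members, against 7. In the interaction DESeq2 called 1 member and the leave-outs 0 to 1. Female-higher members at an unadjusted p below 0.05 numbered 3 to 11 in antennae and 5 to 11 in proboscis over the leave-outs. Over all genes, DESeq2 called 12 in antennae, 1 in proboscis, 68 in legs and 19 in the interaction, where edgeR called 0, 0, 4 and 0, and voom called 7 in legs. The batch call of DPOGS200298 was lost with voom (adjusted p = 0.0664). No fitted value of the genes named by the rule changed sign in the settings run. The all-gene proboscis median of -0.03 was 0.06 with voom (57.6% above 0) and 0.01 with upper-quartile scaling (50.5%). Over the leave-outs, the median of the 4 male-higher members in antennae ran from -0.29 to 0.98, and that of the female-higher members between batches in legs from -0.18 to 0.37. With the animal as a replicate block, 16 members differed between antennae and proboscis, against 19, and 0 in the interaction. No paired analysis was possible for the sex comparisons because the sexes share no animal. The shallowest antennal library, at 621625 counts, limits what absence there shows.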
